A study of Mus musculus with 7 samples.

Results

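The genes examined encode the Wnt signalling core: 19 Wnt ligands, 12 receptors (10 Frizzled proteins with the co-receptors Lrp5 and Lrp6) and 8 intracellular effectors (Axin1, Axin2, Dvl1, Dvl2, Dvl3, Tcf7l1, Tcf7l2 and Lef1). Their methylation was read from active regions, which are the merged intervals of enriched 5-methylcytosine (5mC) over all libraries. A region was assigned to a gene when it overlapped the gene body or the 1 kb on either side. In this way 230 of the 133337 active regions fell to the 39 genes, with 78 regions at ligand genes, 31 at receptor genes and 121 at effector genes. Of these, 3 regions lay in the windows of both Wnt3 and Wnt9b, which overlap on chromosome 11, and were counted once. The regions were 172 to 1056 bp long, 225 of them touched the body of the gene, and 21 also overlapped another annotated gene.

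The cells were primary neurons from hippocampi of C57BL/6J mouse embryos (E18.5), grown for 11 days in culture with AraC, which removes dividing cells. The KCl group (3 libraries) received 55 mM KCl for 4 h, which depolarises neurons, and the untreated group (3 libraries) did not; both carry no genetic change named in the labels. MeDIP-seq was used, in which an antibody pulls down methylated DNA fragments for sequencing, and a pooled input library was not analysed here. The labels do not say whether libraries came from separate cultures or whether embryos were pooled, so the p-values reflect only how these libraries vary, and that variation could be technical. DNA methylation data hold no expression markers, and the cell type was not checked here.

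Wnt proteins are secreted, lipid-modified ligands that bind a Frizzled receptor and, in the canonical branch, the co-receptors Lrp5 or Lrp6. Dishevelled proteins (Dvl) and Axin then gather at the membrane, the complex that destroys β-catenin is inhibited, and β-catenin enters the nucleus to act with Lef1 and the Tcf factors. In the hippocampus the pathway is known for patterning the tissue from the cortical hem, for neurogenesis in the dentate gyrus and for synapse formation.

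The libraries differed in the number of called intervals more within the KCl group than between groups. KCl libraries 1, 2 and 3 held 93470, 60949 and 34834 intervals, and untreated libraries 1, 2 and 3 held 87151, 87302 and 72947. The files give a summit height for each interval and no read counts, so the depth of each library is unknown and counting error could not be computed. Below, values per library are listed in this order, and a height is in the deposited units, whose scaling between libraries is not stated.

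Promoters of the Wnt core genes were rich in CpG and held no active region. RefSeq promoter windows (GRCm38.p6, from 250 bases before to 50 bases after a start) were given for 28 of the 39 genes, with 35 windows in all. The windows contained a median of 29 CpG, against 13 over all 21263 windows of protein-coding genes. None of the 35 windows overlapped an active region, while 3.63% of all windows did. Among windows with at least 15 CpG the count was 0 of 28 for the Wnt genes, and the share over all genes was 2.49%, so the absence lay near the background. The following 250 bases upstream of a start are shown as examples of CpG-rich and CpG-poor promoters, with every CpG in capitals. They belong to the genes with the highest ligand and effector regions (Wnt4 and Tcf7l2), to the internal start of Tcf7l2, to a CpG-poor ligand promoter (Wnt8b) and to a CpG-rich promoter of a receptor gene with no region at all (Fzd9).
Wnt4, chr4:137277385-137277634, plus strand: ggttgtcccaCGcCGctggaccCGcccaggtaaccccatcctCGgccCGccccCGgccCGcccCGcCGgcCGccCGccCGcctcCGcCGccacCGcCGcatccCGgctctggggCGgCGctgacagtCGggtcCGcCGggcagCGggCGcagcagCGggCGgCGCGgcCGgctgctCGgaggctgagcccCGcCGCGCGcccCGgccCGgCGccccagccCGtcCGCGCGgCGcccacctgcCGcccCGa
Tcf7l2, chr19:55741560-55741809, plus strand: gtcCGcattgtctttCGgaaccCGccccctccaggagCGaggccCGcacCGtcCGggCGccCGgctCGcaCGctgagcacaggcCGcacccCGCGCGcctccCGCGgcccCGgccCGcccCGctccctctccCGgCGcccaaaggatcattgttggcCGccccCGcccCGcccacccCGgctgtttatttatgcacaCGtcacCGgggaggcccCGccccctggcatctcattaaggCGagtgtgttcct
Tcf7l2 internal start, chr19:55895071-55895320, plus strand: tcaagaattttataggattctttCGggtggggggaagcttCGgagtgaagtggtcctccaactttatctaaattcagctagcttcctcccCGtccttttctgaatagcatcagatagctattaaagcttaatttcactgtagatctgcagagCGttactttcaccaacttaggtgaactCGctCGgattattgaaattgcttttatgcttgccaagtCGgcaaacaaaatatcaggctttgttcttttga
Wnt8b, chr19:44493222-44493471, plus strand: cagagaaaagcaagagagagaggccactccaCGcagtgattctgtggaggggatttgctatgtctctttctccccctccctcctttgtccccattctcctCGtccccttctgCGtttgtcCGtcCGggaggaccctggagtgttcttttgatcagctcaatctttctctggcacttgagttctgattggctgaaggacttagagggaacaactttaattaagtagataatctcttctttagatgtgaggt
Fzd9, chr5:135251048-135251297, minus strand: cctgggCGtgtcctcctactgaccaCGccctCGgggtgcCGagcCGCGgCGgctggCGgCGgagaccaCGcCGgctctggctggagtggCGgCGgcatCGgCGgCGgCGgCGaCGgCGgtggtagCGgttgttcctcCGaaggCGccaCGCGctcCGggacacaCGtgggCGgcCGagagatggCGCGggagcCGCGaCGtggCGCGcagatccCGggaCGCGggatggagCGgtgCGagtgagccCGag

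These stretches held 44 CpG at Wnt4, 30 at the main start of Tcf7l2, 7 at its internal start, 5 at Wnt8b and 42 at Fzd9. The motif CTTTGAT, bound by Tcf and Lef factors, was searched on both strands of the 300-base windows. It occurred in 2 of the 35 windows, at Wnt11 and at an internal start of Wnt5b, and in 3.22% of all protein-coding windows.

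Regions close to a start had heights of 9 to 20 in the libraries where they were called. The median region height was 14 in each role and 13.5 over protein-coding genes. A region lay within 1 kb of 5 of the 35 starts (14.3%), against 11.0% of all starts. Lef1, a DNA-binding partner of β-catenin, had the only one of these regions called in all 6 libraries, at chr3:131113014-131113480, which began 223 bp from an internal start. Its heights were 12, 11 and 14 in the KCl libraries and 10, 13 and 15 in the untreated libraries, and the groups overlapped. At Wnt3, a canonical ligand, the region chr11:103774339-103774914 lay 164 bp from the start. It had a height of 13 in KCl library 1 and no call in KCl libraries 2 and 3, against 20, 15 and no call in the untreated libraries. The next Wnt3 region, chr11:103775032-103775376, was called at 16 in KCl library 1 alone among KCl libraries, against 9, 10 and 9 in the untreated libraries. It was thus called in every untreated library and in 1 KCl library, and its KCl height lay above those of the untreated libraries. Tcf7l2 had 3 such regions and Wnt11 had 1, all called only in a library numbered 1. At the main start of Tcf7l2, chr19:55740525-55741134 had a height of 15 in KCl library 1 and 13 in untreated library 1. At its internal start, chr19:55895667-55896115 reached 15 in KCl library 1 and chr19:55894495-55894764 reached 13 in untreated library 1. The Wnt11 region, chr7:98839697-98840057, was called at 14 in KCl library 1.

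Over whole gene windows, promoters included, active regions were densest at effector genes, followed by ligand genes and then receptor genes. Over the merged windows of each role there were 19.5 regions per 100 kb at effectors, 12.5 at ligands and 8.11 at receptors, against 6.65 over 21887 protein-coding genes. The median density over genes was 16.3 at effectors, 12.2 at ligands and 2.04 at receptors, against 4.84, so the median receptor gene lay below that of all genes. Regions covered 8.02% of the effector windows, 5.17% of the ligand windows and 3.15% of the receptor windows, against 2.62% for all genes. All 8 effectors, 17 of 19 ligands (89.5%) and 6 of 12 receptors (50%) had a region, against 65.3% of protein-coding genes. These figures describe the chosen genes and carry no test.

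The same order held in each library's own intervals. Effectors had 13.9, 9.02 and 5.16 regions per 100 kb in the KCl libraries and 14.8, 13.2 and 9.67 in the untreated libraries. Ligands had 9.80, 5.62 and 3.37 in the KCl libraries and 8.52, 7.71 and 7.23 in the untreated libraries. Receptors had 5.75, 4.18 and 2.35 in the KCl libraries and 5.75, 6.28 and 4.18 in the untreated libraries. KCl library 3 was lowest in every role, and the KCl and untreated ranges overlapped in every role. The densities moved with the number of intervals, since all protein-coding genes had 3.21 ± 1.41 regions per 100 kb in the KCl libraries and 4.15 ± 0.457 in the untreated libraries (SD, n = 3 each). Set against that value in the same library, effectors stood at 2.66 to 3.42 times, ligands at 1.72 to 2.11 times and receptors at 1.15 to 1.40 times.

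**Figure D1:**
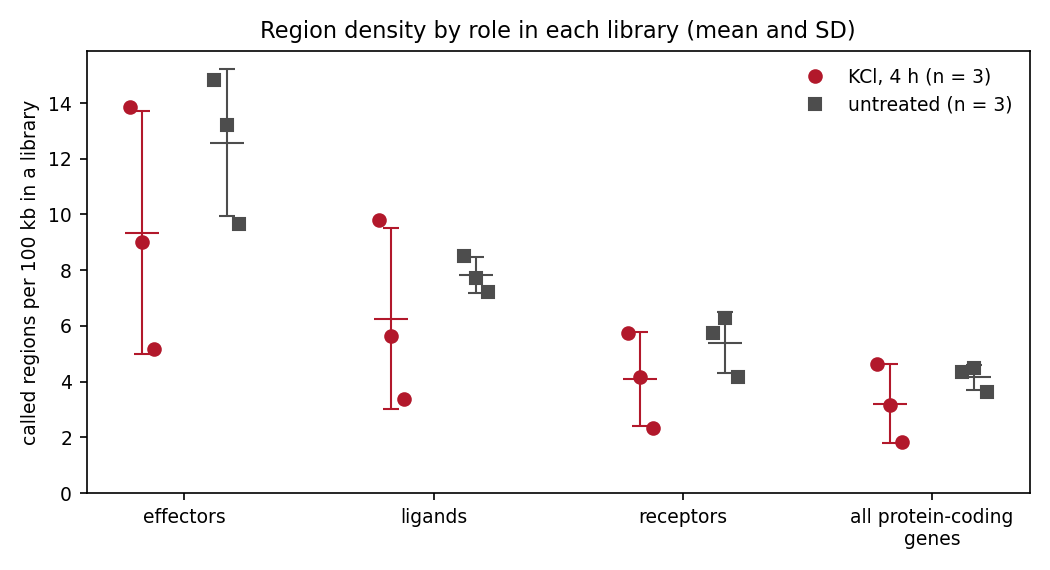
Called regions per 100 kb of gene body ± 1 kb in each library, for effectors, ligands, receptors and all protein-coding genes; points are libraries, bars the mean and SD of 3 KCl (4 h) and 3 untreated libraries. The order of the roles was the same in all 6 libraries, and the KCl and untreated points overlap in each role.

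Tcf7l2 carried much of the effector signal and Lrp5 much of the receptor signal. Tcf7l2, a nuclear partner of β-catenin also known as Tcf4, held 58 of the 121 effector regions (47.9%), and without it the effector density was 14.8 per 100 kb, still above that of ligands. Lrp5 held 16 of the 31 receptor regions (51.6%), and without it receptors stood at 5.38 per 100 kb, below the value for all genes. Leaving out any 1 ligand gene kept the ligand density between 12.0 and 13.3.

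Long genes and short genes differed in whether they had a region at all. The 8 Wnt core genes with no region were Wnt1, Wnt10b, Fzd1, Fzd2, Fzd4, Fzd8, Fzd9 and Fzd10, and each of them was under 10 kb long. Wnt1 is known for patterning the midbrain, Wnt10b for restraining fat cell formation and Fzd4 for retinal vessel growth. Among all 12 Wnt core genes of that length, 4 had a region (33.3%), against 36.1% of protein-coding genes of that length. All 19 Wnt core genes from 10 to 50 kb had one, against 74.7%, and all 8 longer ones did, against 95.1%. Of the receptor genes, 8 were under 10 kb, and the part of gene length in the lower share of receptors with a region was not tested. In the density per 100 kb, the Wnt core stood at 11.8 against 9.36 for all genes under 10 kb, where receptors were at 7.97, at 13.6 against 8.29 for all genes between 10 and 50 kb, and at 14.7 against 6.03 above 50 kb.

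**Figure D2:**
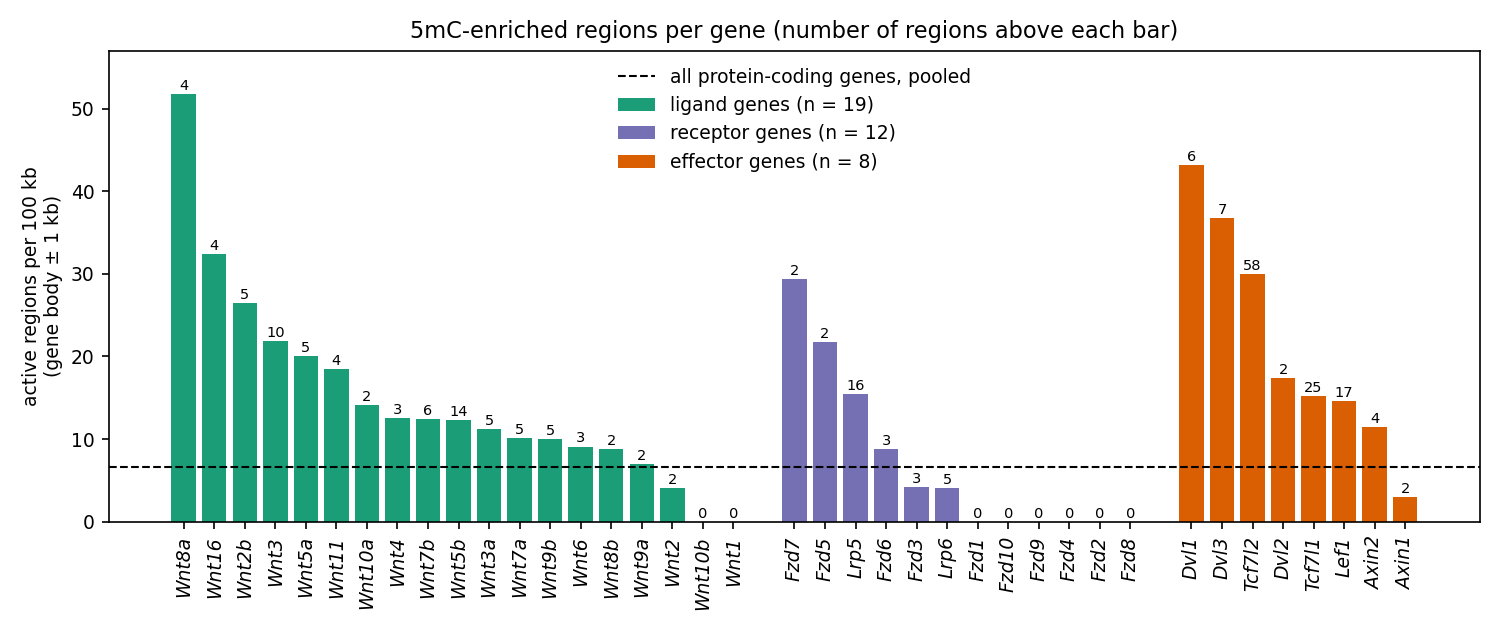
Active regions per 100 kb of gene body ± 1 kb for each of the 39 genes, coloured by role and ordered by density, with the number of regions above each bar and the pooled value of all protein-coding genes as a dashed line. Wnt8a (4 regions) and Dvl1 (6 regions) stand highest, and 8 genes have no region.

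Among the ligands, density ran from 4.06 to 51.7 regions per 100 kb in the 17 genes with a region. Wnt8a, an embryonic ligand of the early body axis, was densest with 4 regions. It had 3, 1 and 0 called regions in the KCl libraries and 4, 2 and 2 in the untreated libraries, at heights of at most 19, and the groups overlapped. Wnt16, a regulator of cortical bone, followed with 4 regions (32.4 per 100 kb), Wnt2b with 5 (26.4), Wnt3 with 10 (21.8), Wnt5a with 5 (20.1) and Wnt11 with 4 (18.46). Of these, Wnt5a and Wnt11 are best known for signalling without β-catenin. Wnt3a, which the developing hippocampus requires, had 5 regions (11.2 per 100 kb), and Wnt8b, a marker of the hippocampal primordium, had 2 (8.77). Wnt7b, which promotes dendrite growth, had 6 (12.4), and Wnt7a, which promotes synapse assembly, had 5 (10.1). Wnt10a stood at 14.1, Wnt4 at 12.6, Wnt5b at 12.2, Wnt9b at 10.0, Wnt6 at 9.10, Wnt9a at 6.97 and Wnt2 at 4.06. Wnt2 was called in KCl libraries only, with 1 region in library 1 and 1 in library 3, at heights of 18 and 12. Each of the 2 was called in that library alone, as were 27.8% of all regions in protein-coding genes. Of the 230 core regions, 28 were called in KCl libraries only and 48 in untreated libraries only. No difference between groups was read from the Wnt2 regions.

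Of the receptor genes with a region, Fzd7, a receptor of stem and progenitor cells, was densest at 29.4 per 100 kb. This value rested on 2 regions of 1 library each. Fzd7 had none in the KCl libraries and 1, 0 and 1 in the untreated libraries, at heights of 14 and 11. Fzd3, which guides axons, likewise had no call in the KCl libraries and 2, 1 and 0 in the untreated libraries, at heights of 9 to 11. Regions called in a single library, at any height, are 27.8% of all regions in protein-coding genes. No difference between groups was read from these Fzd7 and Fzd3 regions. Fzd5, which acts in eye development, had 2 regions (21.8 per 100 kb), Lrp5 had 16 (15.4), Fzd6, which orients hair follicles, had 3 (8.81), and Lrp6 had 5 (4.08).

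Effector genes ranged from 3.00 regions per 100 kb at Axin1 to 43.2 at Dvl1. The 3 Dishevelled genes, whose products relay the signal from Frizzled, had 6 (Dvl1), 2 (Dvl2) and 7 (Dvl3) regions. Dvl1 had 3, 1 and 2 called regions in the KCl libraries and 4, 5 and 2 in the untreated libraries. Dvl3 (36.7 per 100 kb) had 5, 5 and 4 in the KCl libraries and 6, 7 and 4 in the untreated libraries. In both genes the groups overlapped. Tcf7l2 stood at 29.9, Dvl2 at 17.4, Tcf7l1 at 15.2 and Lef1 at 14.6 per 100 kb. Axin2, a feedback inhibitor that the pathway itself induces, had 4 regions (11.4), and Axin1, the scaffold of the destruction complex, had 2.

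Although effectors had the most regions, ligands had the larger share of high ones. The median height over regions was 14 in each role and 13.5 over protein-coding genes. A mean height of at least 40, a limit chosen after the values were seen, was reached by 8 of 78 ligand regions (10.3%), 0 of 31 receptor regions and 2 of 121 effector regions (1.65%), against 3.88% of all regions in protein-coding genes. With a limit of 30 the counts were 8, 1 and 8, so that the ligand share of 10.3% compared with 6.61% for effectors and 7.68% for all genes. The share of regions called in all 6 libraries was 23.1% at ligands, 22.6% at receptors and 23.1% at effectors, against 22.2%.

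The highest ligand regions lay in Wnt4, Wnt6 and Wnt11. Wnt4, a ligand of kidney and reproductive tract development, had heights of 110, 85 and 56 in the KCl libraries and 84, 107 and 76 in the untreated libraries at chr4:137296156-137296786. Wnt6, an ectodermal ligand, had 89, 61 and 44 in the KCl libraries and 81, 96 and 60 in the untreated libraries at chr1:74782784-74783328. Wnt11 had 67, 59 and 39 in the KCl libraries and 58, 63 and 44 in the untreated libraries at chr7:98846216-98846957. KCl library 3 was lowest at all 3, and KCl and untreated heights overlapped at each. The Wnt4 region was higher than 98.5% of the 27310 regions called in all 6 libraries.

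Receptor regions stayed lower. The highest, in Lrp5 at chr19:3596998-3597601, had heights of 44, 35 and 22 in the KCl libraries and 42, 50 and 31 in the untreated libraries. The next were both in Fzd6. At chr15:39026580-39027063 the heights were 35, 24 and 11 in the KCl libraries and 26, 31 and 21 in the untreated libraries. At chr15:39031184-39031805 they were 30, 19 and 17 in the KCl libraries and 27, 32 and 23 in the untreated libraries. The groups overlapped at all 3 receptor regions.

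The highest region of the whole pathway core was at the 3′ end of Tcf7l2. At chr19:55931264-55932106, centred 1974 bp before the end of the gene, heights were 140, 99 and 69 in the KCl libraries and 114, 139 and 95 in the untreated libraries. Its mean of 109 placed it at rank 159 of the 133337 active regions. Lef1 had 59, 31 and 24 in the KCl libraries and 55, 44 and 31 in the untreated libraries at chr3:131114168-131114688, near its 5′ end. Tcf7l1, a mostly repressive Tcf factor also called Tcf3, had 45, 30 and 27 in the KCl libraries and 39, 47 and 45 in the untreated libraries at chr6:72627368-72627855, centred 1240 bp before its 3′ end. The groups overlapped at each of these effector regions, and the KCl library with the highest value was library 1 throughout.

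**Figure D3:**
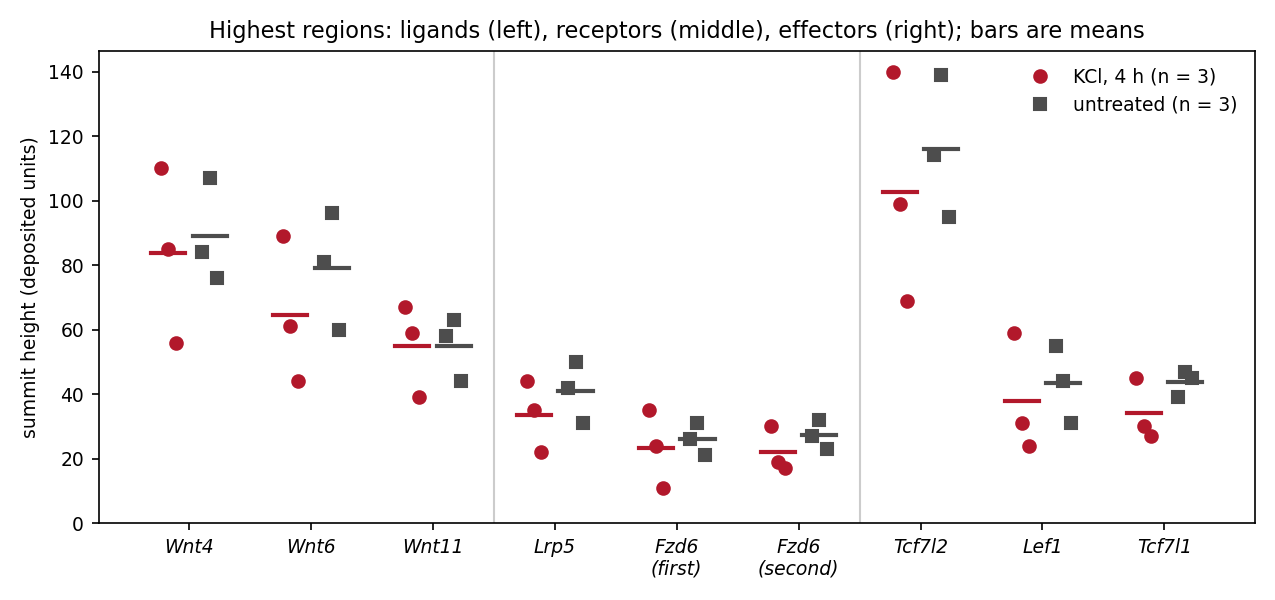
Summit heights (deposited units) of the 3 highest regions of each role in each library, KCl (4 h) on the left and untreated on the right of each pair; points are libraries and bars are means of 3. KCl and untreated points overlap at all 9 regions, and the Tcf7l2 region is highest.

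The high regions of the Wnt core that could be placed lay mostly toward the 3′ end of their genes. Position could be set for the 28 genes with a strand in the promoter table, of which 22 had 180 regions centred in the gene body. The core had 10 regions with a mean height of at least 40. Those in Wnt7b (52.3) and Wnt5a (48) could not be placed, because the strand was not given. Of the 8 that could, 6 (75%) were in the last 20% of the gene, namely in Tcf7l2, Wnt4, Wnt6, Wnt11, Wnt3a and Wnt5b. Over all protein-coding genes 31.5% of 2161 such regions were in the last 20%. Of the other 2, 1 was in the middle of Wnt11 and 1 in the first 20% of Lef1. At a limit of 30 the share was 61.5% for the Wnt core, against 29.7% for all genes. Without the limit the last 20% of the gene held 28.3% of the 180 regions, against 24.8% of the regions of all genes, and the first 20% held 21.1%, against 17.1%. The limit was chosen after values had been seen, exons were not assigned, and the shares have no test.

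**Figure D4:**
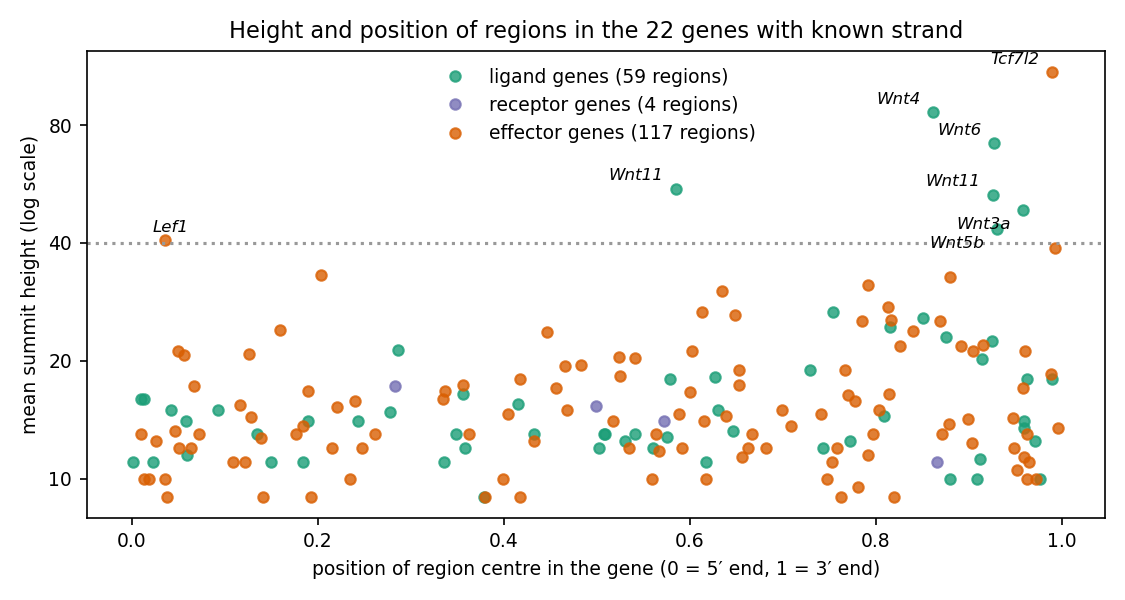
Mean summit height (log scale) of 180 regions by the position of their centre in the gene, from the 5′ end (0) to the 3′ end (1), coloured by role; the dotted line marks a height of 40. Of the 8 labelled regions above the line, 6 lie in the last 20% of the gene.

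Along Tcf7l2 the regions were unevenly spread. From 5′ to 3′ the 5 equal parts of the gene held 18, 6, 8, 12 and 13 regions. The first part had the most regions but none above a mean height of 24, while the last part held the highest region of the gene. Of the 58 regions, 22 were called in a single library and 9 in all 6. Tcf7l2 had 40, 24 and 12 called regions in the KCl libraries and 45, 33 and 26 in the untreated libraries, and these ranges overlapped. Tcf7l1 held 3, 3, 5, 5 and 8 regions in its 5 parts, Lef1 held 5, 2, 2, 5 and 3, and the ligand gene Wnt5b held 5, 2, 2, 2 and 3.

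**Figure D5:**
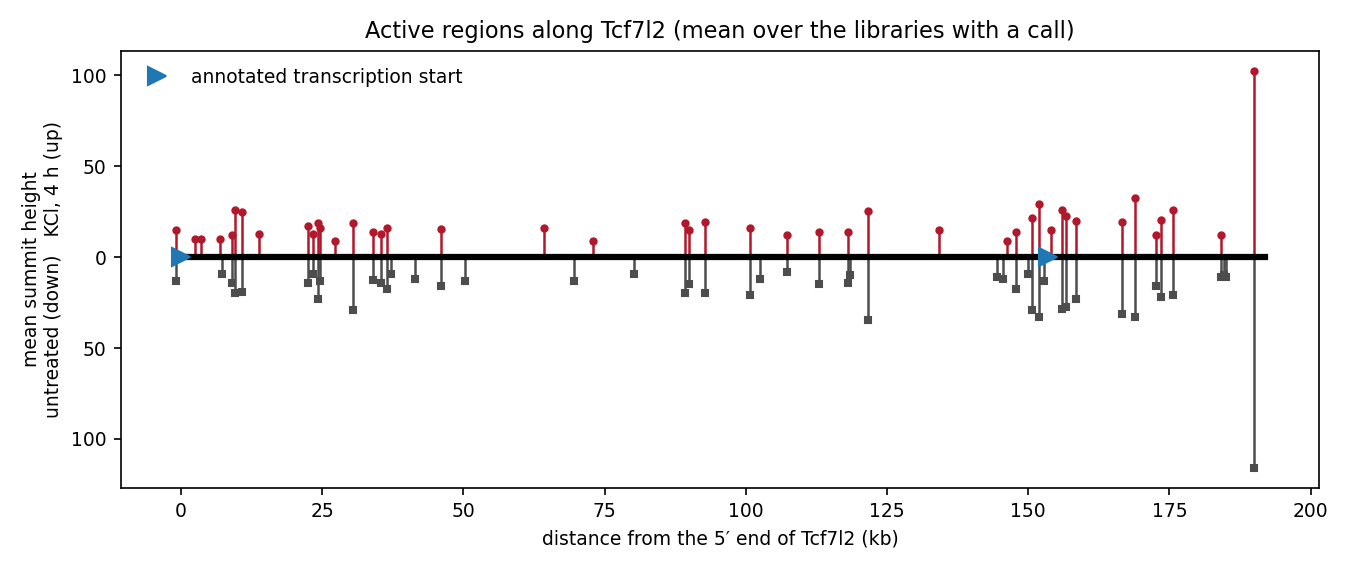
Active regions along Tcf7l2 by distance from its 5′ end (kb), with the mean summit height over the KCl (4 h) libraries with a call drawn upward and over the untreated libraries with a call drawn downward; triangles mark annotated starts. The 5′-most of 5 equal parts holds 18 regions, and the highest region, with a mean of 109 over all 6 libraries, lies at the 3′ end.

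At the Wnt core no region passed the threshold for a change in 5mC enrichment with KCl. Of the 53 core regions called in all 6 libraries, 43 passed a filter on low heights and were tested with limma among 20537 regions. No core region passed an adjusted p of 0.05 in either direction, the background share was 0% in both directions, and 0.932 was the lowest adjusted p over all regions. At an unadjusted p under 0.05 there were 0 core regions, against 1.12% of all tested regions lower and 0% higher with KCl. After each library was centred on its median, 0 core regions reached that p, against 3.64% of all. With a replicate block, which compares libraries of the same number, 1 core region reached an unadjusted p under 0.05, against 2.48% of all tested regions, and after centring 1 did, against 5.09%. In both it was the Tcf7l2 region described next, with a limma unadjusted p of 0.0372 and, centred, of 0.0435 (adjusted p = 0.857 and 0.980). Core regions that lacked a call in some library or were low were outside this test.

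Some core regions had separate KCl and untreated heights, but none passed the threshold after adjustment over all tested regions. Changes are given relative to the median tested region, whose own log2(height + 1) difference, KCl minus untreated, was -0.25. The 43 core regions had a median relative log2 change of -0.06, with 17 above 0 and 26 below, from -0.43 to 0.37. The medians were -0.07 at 15 ligand regions, -0.04 at 6 receptor regions and -0.05 at 22 effector regions. The largest relative decrease was in Tcf7l2 at chr19:55908175-55908720, with heights of 24, 17 and 17 in the KCl libraries and 29, 37 and 28 in the untreated libraries. The groups did not overlap there. The log2 change as deposited was -0.68 (limma unadjusted p = 0.0601, adjusted p = 0.932). The relative change was -0.43 (SE 0.21), with an unadjusted p of 0.0512 in limma after centring. A further Tcf7l2 region, chr19:55772118-55772489, had 23, 18 and 16 in the KCl libraries and 29, 33 and 25 in the untreated libraries, a relative change of -0.34 (SE 0.21). Dvl2 had 26, 24 and 14 in the KCl libraries and 29, 39 and 28 in the untreated libraries at chr11:70006161-70006685, a relative change of -0.35 (SE 0.20). Neither of these regions overlapped between groups, and both had an adjusted p of 0.932 for heights as deposited. A Dvl3 region, chr16:20520197-20520654, also had a relative change of -0.35 (SE 0.20), but its groups overlapped. Its heights were 47, 23 and 14 in the KCl libraries and 41, 41 and 33 in the untreated libraries.

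Heights of all KCl libraries lay below all untreated libraries at 4 of the 43 core regions (9.30%), against 4.14% of all tested regions. The 4 were effector regions, namely the Tcf7l2 and Dvl2 regions above without overlap and chr6:72716150-72716508 in Tcf7l1. The Tcf7l1 region had 24, 18 and 16 in the KCl libraries and 25, 28 and 31 in the untreated libraries. None lay above, against 0.0292% of all. After median centring 3 of the 4 still lay below, as did 3.89% of all, and 2 core regions lay above, as did 4.67% of all. Those 2 were the Wnt11 region at chr7:98846216-98846957 (relative log2 change 0.23) and chr3:131184020-131184518 in Lef1. The Lef1 region had 33, 28 and 18 in the KCl libraries and 28, 26 and 24 in the untreated libraries, so heights as deposited overlapped between groups. Whether effectors differed from ligands and receptors in this was not tested.

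Among tested core regions with higher mean log2 heights in the KCl libraries, the 3 with the lowest p for heights as deposited had overlapping groups. At chr6:72664036-72664453 in Tcf7l1 the heights were 24, 21 and 14 in the KCl libraries and 26, 16 and 13 in the untreated libraries. The log2 change as deposited was 0.12 (limma unadjusted p = 0.734). The relative change was 0.37 (SE 0.25, unadjusted p = 0.138 in limma after centring). Without untreated replicate 2 this change was 0.22. Wnt9a, a ligand of joint formation, had 27, 25 and 11 in the KCl libraries and 19, 23 and 16 in the untreated libraries at chr11:59331023-59331473 (0.28, SE 0.23). Leaving out KCl replicate 2 gave 0.13 and leaving out KCl replicate 3 gave 0.44. Another Tcf7l1 region, chr6:72703471-72704042, had 27, 23 and 12 in the KCl libraries and 17, 30 and 14 in the untreated libraries (0.27, SE 0.24). Without untreated replicates 1, 2 and 3 in turn the change was 0.18, 0.49 and 0.14, and without KCl replicate 2 it was 0.17. As deposited, the log2 changes were 0.03 at the Wnt9a region and 0.02 at this Tcf7l1 region (limma unadjusted p = 0.926 and 0.954). After centring, the lowest p above the median was at the Wnt11 region chr7:98846216-98846957 (limma unadjusted p = 0.104), with a log2 change as deposited of -0.02.

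Regions called in all libraries of 1 group and in none of the other were rare. A single region, in Wnt8a, was called in 3 untreated and 0 KCl libraries, at heights of 17, 13 and 11, among 230 core regions, against 1.01% of all active regions. No core region was called in 3 KCl and 0 untreated libraries, against 0.0367% of all.

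Heights summed over a gene gave no call either. Of 8071 protein-coding genes with an interval in every library, 22 were Wnt core genes, and 0 of all genes were called by limma after median centring (lowest adjusted p = 0.921). At an unadjusted p under 0.05 there were 0 core genes, against 4.18% of all. With the replicate block 1 core gene reached that unadjusted p in limma without centring, namely Dvl1 at 0.0292, against 6.15% of all genes. With the block and centring it was Tcf7l2, at 0.0433, against 5.81% of all genes. Relative log2 changes are given against the median tested gene, whose own change after centring was 0.036. They ran from -0.63 at Dvl1 (SE 0.42) to 0.42 at Wnt2b (SE 0.28), with 9 genes above 0 and 13 below. The Dvl1 value was -0.10 without KCl replicate 2. Of the 8 effectors 7 were below 0, with a median of -0.17, and of the 11 ligands 6 were. These counts depend on the reference. Before the median gene was subtracted, the centred changes of Lef1 (0.036), Dvl3 (0.0024) and the ligand gene Wnt6 (0.019) were above 0. That of Tcf7l2 was then -0.229. Tcf7l2 had summed heights of 921, 484 and 237 in the KCl libraries and 904, 799 and 596 in the untreated libraries, a relative log2 change of -0.27 (SE 0.15). It ranged from -0.44 without KCl replicate 1 to -0.12 without KCl replicate 3, and was -0.14 without untreated replicate 1. Tcf7l1 had 355, 198 and 81 in the KCl libraries and 364, 309 and 250 in the untreated libraries, a change of -0.35 (SE 0.18). It ranged from -0.54 without KCl replicate 1 to -0.14 without KCl replicate 3, was -0.23 without untreated replicate 1, and was -0.10 in regions of at least 500 bp. In both genes KCl library 3 was lowest and the groups overlapped.

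In pooled density the wider pathway was below the core, while the median over genes was close. A list of 62 other Wnt pathway genes held 364 regions at 8.33 per 100 kb, against 14.2 in the core. The median over genes was 10.5 in the list and 11.4 in the core. Of the 62 genes 58 had a region (93.5%), against 79.5% of the core genes. By function the density was 15.98 at 5 cytoplasmic inhibitors (Dact and Nkd genes), 10.8 at 12 secreted antagonists, 9.15 at 10 genes of signalling without β-catenin, 7.77 at 10 nuclear cofactors, 7.11 at 11 genes of the destruction complex, 6.92 at 11 genes of the R-spondin module and 4.00 at 3 genes of ligand secretion. Of 57 tested regions 0 passed the threshold, and the median relative log2 change was 0.01, with 30 above 0 and 27 below. The lowest unadjusted p was at Lgr5, an R-spondin receptor, with 24, 9 and 13 in the KCl libraries and 27, 21 and 28 in the untreated libraries at chr10:115521935-115522264 (log2 change as deposited -0.78, limma unadjusted p = 0.0270, adjusted p = 0.932). Its relative change was -0.54 (SE 0.26), with an unadjusted p of 0.0475 in limma after centring. The groups overlapped there. In the other lists the leading regions were in Apc2, Bcl9, Ror2, Dact1 and Sfrp1, with relative changes from -0.31 to -0.08 and an adjusted p of 0.932 for heights as deposited, and no region of the ligand secretion genes was tested. Summed over a gene, 32 of the 62 were tested, with 10 relative changes above 0 and 22 below, a median of -0.12, and 0 calls. An unadjusted p under 0.05 was reached by 3 of the 32, against 4.18% of all genes, all with a lower centred sum in the KCl libraries. They were Frzb, a secreted antagonist, with a limma unadjusted p of 0.0143, Rnf43, which removes Frizzled from the membrane, with 0.0193, and Daam2, a formin that binds Dishevelled, with 0.0362. Each had an adjusted p of 0.921.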

How the data were processed

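MeDIP-seq intervals from 3 KCl and 3 untreated libraries were analysed, and the members and gene lists were chosen with earlier results of these data known. Per the submitters' processing notes, BWA, SICER and build mm10 were used, without stated versions; settings were not given in the sources used here. Per the file headers, the deposited file holds 13 tracks: intervals and summits of each library and the active regions of all. The other values used, whole-number summit heights as deposited by the authors, have no stated scaling.

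Each active region took the highest summit per library. Gene windows (RefSeq GRCm38.p6, whose coordinates are those of mm10, body ± 1 kb, without exons) were merged per role before density was computed. Regions called in all 6 libraries (27310) entered as log2(height + 1) and were tested with limma 3.58.1 (R 4.3.3) with an intensity trend, two-sided, without a replicate block, after a filter at the 25th percentile of mean height. P-values were adjusted by Benjamini-Hochberg over 20537 regions (threshold 0.05). SEs come from the fit after median centring. The gene fit used summed heights, centred on the median of each library. The code was tested on simulated heights that held no library-wide shift, so its handling of such shifts was not tested. Per-library values are given for the 3 highest regions per role, the 3 tested regions of lowest p in each direction, regions near starts and the densest gene per role; other named values were chosen after they were seen.

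Libraries with the same number in both groups correlated in their deviations from the group means at 0.11, 0.11 and 0.15, above the limit of 0.1, so the numbers pair the libraries by this hint from the data, although no label gives the meaning of a number. Promoter sequences are from RefSeq (GRCm38.p6); 28 of 39 genes matched.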

Additional observations from a re-analysis of the deposited data

How the results depend on the processing

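The order of effectors, ligands and receptors by pooled density held under each alternative below. In pooled density each role stood above all protein-coding genes, except receptors without Lrp5, at 5.38 per 100 kb. By the median over genes in the main setting, receptors (2.04) lay below all protein-coding genes (4.84). Regions per 100 kb for effectors, ligands, receptors and all protein-coding genes were 13.4, 9.48, 6.01 and 4.80 for regions called in at least 2 libraries, 4.51, 2.89, 1.83 and 1.48 for those called in all 6, 9.35, 6.11, 4.18 and 3.04 with the 34834 highest intervals of each library, and 11.9, 8.20, 4.97 and 3.66 with heights of at least 15. Leaving out genes, chosen after seeing the data, gave 14.8 for effectors without Tcf7l2 and 10.0 for receptors without Lrp6. Leaving out 1 library gave 17.1 to 19.5, 10.9 to 12.5 and 7.32 to 8.11. The share of receptors with a region was 33.3% for at least 2 libraries, equal intervals or heights of at least 15, 25% for all 6 libraries and 66.7% with a flank of 5 kb; for ligands it was 57.9% for all 6 libraries. Median heights at effectors, ligands and receptors were 23.8, 25.5 and 22.7 in regions called in all 6 libraries and 21.2, 25.8 and 19.2 in regions of at least 500 bp.

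No region passed the threshold in any alternative. The replicate block, which compares libraries of the same number, also gave 0 regions and 0 genes in limma. The lowest adjusted p was 0.857 over regions and 0.201 over genes without centring. With median centring it was 0.461 over regions and 0.765 over genes. No adjusted call changed, and the unadjusted counts that the block moved stand beside those results. Without KCl replicate 1 there were 10 genes past the threshold, none of the Wnt core, and from 0 to 10 over the libraries left out. In that setting the lowest adjusted p over regions was 0.0842, and the median log2 change was -0.46. A limma unadjusted p under 0.05 was reached by 4325 of 20796 regions, against 231 in the main fit. These included the Tcf7l2 and Dvl2 regions without overlap between groups (0.0114 to 0.0266, adjusted p from 0.198 to 0.220). The gene sums of Tcf7l2 and Tcf7l1 reached 0.0189 and 0.0215 in limma (adjusted p = 0.346 and 0.357). The cause was not tested. Relative changes near 0 turned sign when 1 library was left out: from -0.0154 to 0.0879 at the highest Tcf7l2 region, -0.15 to 0.19 at Lef1 (and 0.00016 in regions of at least 500 bp), -0.17 to 0.00076 at Wnt6, -0.153 to 0.0143 at Lrp5, and -0.16 to 0.19 and -0.158 to 0.0112 at the Fzd6 regions. Regions without a call in every library used were outside the region fits, so differences at them were not tested. The depth of each library is unknown.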
